A study of Mus musculus with 5 samples.

Results

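The 8 genes described here are parts of the gamma and delta chains of the T cell receptor, and they were chosen by name from the 32285 features of single-cell libraries made from T cells of DOX-treated 4T1 tumors. They were the delta constant gene Trdc, the delta variable segment Trdv4, the gamma constant genes Tcrg-C1 and Tcrg-C2, and the gamma variable segments Tcrg-V3, Tcrg-V6, Tcrg-V7 and Trgv2. The files held 26 features of the gamma and delta loci in all, so the other 18 are given where they bear on these 8. Earlier results of the same libraries had led to the choice, and the share of positive cells in each cell gate and library was part of it, so all differences between libraries below are descriptions.

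4T1 is a mouse mammary carcinoma line, and its tumors were grown in the mammary fat pad of female BALB/c mice, whose age the labels give as 12 weeks. All mice of the T cell libraries received doxorubicin (DOX) intravenously at 5 mg/kg in 3 doses given 3 days apart. Sensitive tumors were those whose growth DOX inhibited, and resistant tumors were those that grew on unaffected. Each of the 2 T cell libraries, 1 sensitive and 1 resistant, pooled cells of 3 tumors after magnetic depletion of other immune cells and of the CD90.1-marked cancer cells, a step that can itself set the shares of rarer T cell and natural killer (NK) subsets. With 1 library per group no p-value could be given, and every interval below is a 95% interval for counting error only.

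A T cell carries either an alpha-beta or a gamma-delta receptor. The gamma locus is made of cassettes, each with its own variable (V) and joining segments and a constant (C) gene, and a rearranged gamma chain normally joins a V segment to the C gene of the same cassette. Tcrg-V7, Tcrg-V6 and Tcrg-C1 lie in the first cassette, Tcrg-V3 lies with Tcrg-C3, Trgv2 lies with Tcrg-C2, and Tcrg-V1 lies with Tcrg-C4. Gamma-delta T cells that pair Tcrg-V6 with Trdv4 arise early in life, settle in barrier tissues and are known for making interleukin-17 (IL-17). Alpha-beta T cells can keep transcribing gamma genes that do not form a receptor, because gamma rearrangement is attempted before the lineage is fixed, and NK cells can transcribe receptor constant genes that were never rearranged.

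Gene names match positions in the mouse build GRCm38 (GENCODE M21 annotation). The gamma members lie on chromosome 13 and the delta members on chromosome 14, and Tcrg-C2 with Trgv2 is annotated on the minus strand, 29021 bases apart. Tcrg-C1 is at chr13:19214103-19217024, Tcrg-C2 at chr13:19304649-19307551, Trgv2 at chr13:19336573-19337167, Tcrg-V6 at chr13:19190356-19190929, Trdv4 at chr14:54074905-54075515 and Trdc at chr14:54142851-54148868. The first constant exons of Tcrg-C1 and Tcrg-C2 were identical at 97.3% of 330 bases, with 9 differences, and those of Tcrg-C1 and Tcrg-C4 at 82.1%. The same 30 bases of that exon are shown 5′ to 3′ for the 4 constant genes, because a read can be assigned to 1 of them only where they differ. The windows lie at chr13:19214195-19214224 (plus strand) for Tcrg-C1, chr13:19307430-19307459 (minus strand) for Tcrg-C2, chr13:19260977-19261006 (plus strand) for Tcrg-C3 and chr13:19344650-19344679 (plus strand) for Tcrg-C4. Capitals mark the bases that differ from Tcrg-C1.
Tcrg-C1: tgtctccttgaaaagttctttccagatgtt
Tcrg-C2: tgtctccttgaaaagttctttccCgatgtC
Tcrg-C3: tgtGtccttgaaaagttctttccCgatgtC
Tcrg-C4: tgtctccttgaaaagttctttccTgaAgtC
Of all 50-base windows in the annotated transcripts, 65.8% were unique to Tcrg-C1 and 74.6% to Tcrg-C2, and the rest occurred in each other or in Tcrg-C3. The counting software uses a read only where it maps to a single gene, so the levels of Tcrg-C1, Tcrg-C2 and Tcrg-C3 are uncertain by reads that match more than 1 of them. Windows of Trdv4, Tcrg-V6, Tcrg-V7 and Tcrg-C4 were all unique, while 77.6% were unique in Tcrg-V3 and 93.0% in Trgv2, which share windows with each other and with Tcrg-V1.

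The last 30 bases of the V segments, which enter the antigen-contacting CDR3 loop of the receptor chain, are shown because these segments tell the receptor types apart. They lie at chr14:54075486-54075515 for Trdv4, chr13:19190900-19190929 for Tcrg-V6, chr13:19178463-19178492 for Tcrg-V7 and chr13:19243272-19243301 for Tcrg-V3, all on the plus strand, and at chr13:19336573-19336602 on the minus strand for Trgv2. Capitals mark the codon of the conserved cysteine at the start of the loop.
Trdv4: gctggtacgtactacTGTgggtcagatatc
Tcrg-V6: cgggaacttattacTGTgcatgctgggata
Tcrg-V7: tgctctgtactacTGTgcctcctgggctgg
Tcrg-V3: agccacctactacTGTgcagtctggataaa
Trgv2: agccacctactacTGTgcagtctggatgag
The libraries were made from the 3′ ends of transcripts, so a V segment is counted only where a fragment reached it, and levels are not compared between different genes.

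The deposited matrices held 3949 barcodes with 31690845 unique molecular identifiers (UMIs, counted transcripts) in the sensitive library and 6116 barcodes with 35908799 UMIs in the resistant library. The libraries differed in quality. Mitochondrial UMIs made up a median of 2.47% of a sensitive and 8.95% of a resistant barcode, and a limit of 10% removed 5.90% and 45.7% of their barcodes. Clusters of T and NK cells (T/NK cells) held 2065 sensitive and 1877 resistant cells with median depths of 3930 and 4522 UMIs, and 7 T/NK barcodes occurred in both libraries. Whether the removal of resistant barcodes shaped the values below was not tested beyond the mitochondrial limits of 5% and 20% given in the closing section.

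Cells were gated on genes other than the receptor genes where possible. CD8 cells had a Cd3 gene (Cd3d, Cd3e or Cd3g) and a CD8 gene (Cd8a or Cd8b1) detected without Cd4, and numbered 1318 sensitive and 1561 resistant cells. CD4 cells numbered 196 and 51, T cells with neither coreceptor (CD4-CD8- T cells) 234 and 106, and NK cells, with Ncr1 or Klrb1c and no Cd3 UMI, 74 and 42. T cells with both coreceptors, 119 and 86, had median depths of 8903 and 6640.5 UMIs and were kept apart, as were 43 and 15 T/NK cells with neither a Cd3 nor an NK gene. Gamma-delta cells were sought in 2 ways. The IL-17 program gate asked for a Cd3 UMI, no Cd4 UMI and at least 2 of 8 program genes, among them Cd163l1, Sox13, Blk, Il23r, Il17a and Il17f, and used no receptor gene. The delta receptor gate asked for a UMI of Trdc together with Trdv4 or Tcrg-V6. Cells of either gate were kept out of all other gates, which took 8 sensitive and 3 resistant cells from the CD8 gate, 67 and 11 from the CD4-CD8- gate and 4 and 2 from the NK gate.

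The IL-17 program gate held cells with the receptor of Tcrg-V6 and Trdv4, although no receptor gene had been used to find them. Trdv4 was detected in 55 of 67 sensitive cells (82.1%, 70.8 to 90.4) and in 9 of 12 resistant cells (75%, 42.8 to 94.5). Tcrg-V6 was detected in 48 of 67 and in 7 of 12 cells, and Tcrg-C1 in 47 of 67 and in 10 of 12 cells. Trdc, the constant gene of the delta chain, was detected in 52 of 67 sensitive cells (77.6%, 65.8 to 86.9) and in 6 of 12 resistant cells (50%, 21.1 to 78.9). These 4 genes make up a complete receptor chain pair, and the intervals of the libraries overlapped for each of them. The other members were sparse here. Tcrg-C2 was found in 6 of 67 and 4 of 12 cells, Trgv2 in 17 of 67 and 4 of 12, and Tcrg-V7 and Tcrg-V3 in at most 1 cell of a library.

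**Figure D1:**
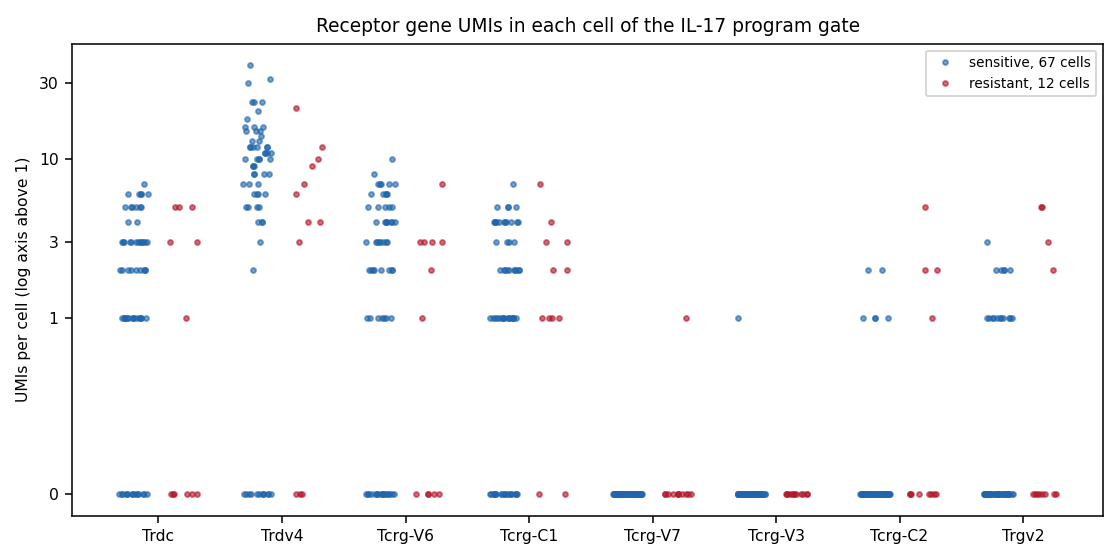
UMIs of each receptor gene in every cell of the IL-17 program gate (y axis, log scale above 1 UMI) for the sensitive library (67 cells, blue) and the resistant library (12 cells, red). Trdv4 reached 39 UMIs in a sensitive cell and 21 in a resistant cell, while Tcrg-V7 and Tcrg-V3 lay at 0 in nearly all cells.

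The median positive cell of this gate held 10 Trdv4 UMIs in sensitive and 7 in resistant tumors, and 4 and 3 UMIs of Tcrg-V6. Summed levels are given as UMIs per 1000000 UMIs of the same cells (CPM). Trdv4 stood at 2794 CPM in sensitive against 1359 CPM in resistant program cells, a ratio of 2.05 (1.62 to 2.64). Tcrg-C1 stood at 517 and 447 CPM, a ratio of 1.16 (0.747 to 1.86). Among the 12 resistant cells, 3 had no UMI of Trdc, Trdv4 or Tcrg-V6, and these 3 cells carried Trgv2 or Tcrg-C2 instead. They were also the 3 resistant cells with Cd8a or Cd8b1, which was detected in 5 of the 67 sensitive cells, and they held 44.4% of the UMIs of the resistant gate. Without cells that lacked all of Trdc, Trdv4 and Tcrg-V6, 6 sensitive and 3 resistant, the Trdv4 ratio was 1.29 (1.02 to 1.66), and that of Tcrg-C1 was 0.738 (0.473 to 1.20), on the other side of 1. Without the 3 resistant cells alone they were 1.14 (0.899 to 1.47) and 0.670 (0.429 to 1.09). The cells left out were chosen after the data were seen and had no Trdv4 UMI. Leaving out the 3 resistant ones alone could therefore only lower the Trdv4 ratio, and no conclusion is drawn from that fall.

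Background levels in cells that should lack these genes varied with the gene and the cell type. Fibroblast-like cells, with median depths of 13272 and 14400 UMIs, had a Trdc UMI in 4 of 831 sensitive and 1 of 592 resistant cells, and a Trdv4 UMI in 4 of 831 and 4 of 592. Their shares for Tcrg-C2 were 0.963% and 1.52%, and for Trgv2 1.08% and 2.36%, at about 3 times the depth of T cells. Macrophage-like cells, with median depths of 10893 and 11656 UMIs, stood at 0.459% and 0% for Trdc, where 0 of 194 cells allows a share of up to 1.55%. Tcrg-C1 was found in 9 of 218 sensitive (4.13%, 1.90 to 7.69) and 6 of 194 resistant macrophage-like cells (3.09%, 1.14 to 6.61), against 0.481% and 0.845% of fibroblast-like cells, and Tcrg-C2 in 4 of 218 and 6 of 194.

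Gamma-delta cells made up a larger share of T/NK cells in the sensitive than in the resistant library by both gates. The IL-17 program gate held 67 of 2065 sensitive T/NK cells (3.24%, 2.52 to 4.10) but 12 of 1877 resistant ones (0.639%, 0.331 to 1.11), a ratio of shares of 5.07 (2.75 to 9.35). After each cell was thinned to 1000 UMIs to equalize depth, the delta receptor gate held 28 of 2039 sensitive cells (1.37%, 0.914 to 1.98) and 6 of 1872 resistant cells (0.321%, 0.118 to 0.696). The ratio was 4.28 (1.78 to 10.3), and on full counts, with 61 and 10 cells, it was 5.54 (2.85 to 10.8). At 2000 UMIs per cell the ratio was 7.49 (2.96 to 18.95) for the delta receptor gate, from 39 and 5 cells, and 10.4 (4.16 to 25.9) for the program gate. The gates shared 47 sensitive cells, which are 77.0% of the receptor gate and 70.1% of the program gate, and 6 resistant cells, which are 60% and 50%. The share of all T/NK cells rests on the other cells of the library as well, and CD8 cells made up 63.8% of the sensitive against 83.2% of the resistant ones.

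Over all T/NK cells, Trdc stood at 36.1 CPM in sensitive against 7.44 CPM in resistant tumors, 4.85-fold (3.80 to 6.25) higher. The ratio was 6.96 (5.72 to 8.53) for Trdv4, 3.01 (2.34 to 3.92) for Tcrg-V6 and 2.17 (1.83 to 2.58) for Tcrg-C1. For Tcrg-V7 it was 1.71 (1.38 to 2.13) and for Tcrg-V3 1.64 (1.23 to 2.21). Without the cells of both gamma-delta gates, the Trdc ratio was 4.06 (2.99 to 5.61). In the other direction, Tcrg-C2 stood at 65.7 CPM in sensitive against 167 CPM in resistant tumors, a ratio of 0.393 (0.360 to 0.430), and Trgv2 had a ratio of 0.620 (0.582 to 0.660). All 8 members were measured with at least 100 UMIs, and 4 were at least 2-fold higher and 1 at least 2-fold lower in the sensitive library, where 2.84% and 0.668% of all 8986 genes were. The members were chosen with this contrast known, so nothing is read from these counts. The median ratio over all genes was 1.10, and relative to it Tcrg-C1 stood at 1.97, under 2-fold.

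The Trdv4 and Tcrg-V6 transcripts of the sensitive library lay mostly in few cells. The cells of either gamma-delta gate, 3.92% of the sensitive T/NK population, held 93.0% of the Trdv4 UMIs, 84.3% of the Tcrg-V6 UMIs, 45.9% of the Trdc UMIs and 32.7% of the Tcrg-C1 UMIs. In the resistant library, where these cells were 0.852% of T/NK cells, they held 73.3% of the Trdv4 UMIs, 27.7% of Tcrg-V6, 33.8% of Trdc and 13.2% of Tcrg-C1. More than 1 gate held Trdc, with 28% of its sensitive UMIs in CD8 and 21.3% in CD4-CD8- T cells, and 26.2% and 30% of its resistant ones. CD8 cells held gamma transcripts of the first cassette too, with 90.4% of sensitive and 92.8% of resistant Tcrg-V7 UMIs. Their part was 34.8% and 69.6% for Tcrg-C1, and 12.4% and 60.2% for Tcrg-V6. Of the Tcrg-C2 cassette, CD8 cells held 80.5% of sensitive and 94.7% of resistant Tcrg-C2 UMIs, and 76.8% and 93.3% of Trgv2 UMIs. The gamma-delta gates held 2.34% and 0.557% of the Tcrg-C2 UMIs.

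**Figure D2:**
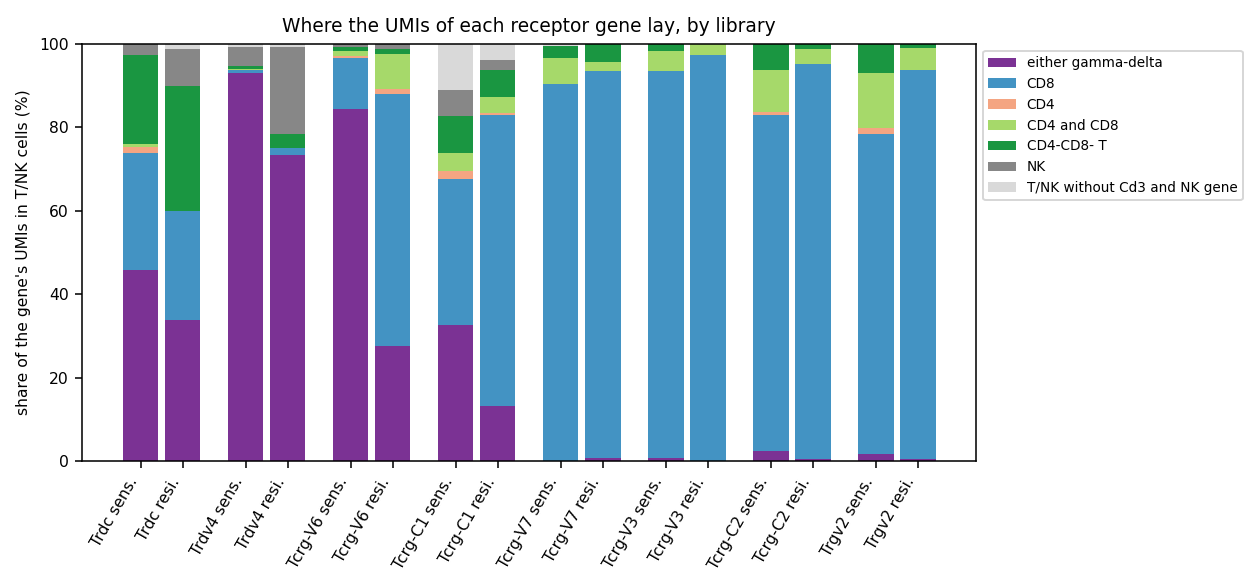
Share of each gene's UMIs in T/NK cells (y axis, percent) by gate (colours) for the sensitive (sens.) and resistant (resi.) library. Purple marks cells of either gamma-delta gate, which held 93.0% of sensitive Trdv4 UMIs, and blue marks CD8 cells, which held 94.7% of resistant Tcrg-C2 UMIs.

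Genes outside the receptor loci were compared between delta receptor cells and other T cells within each library. The other T cells here include the IL-17 program cells outside the delta receptor gate. Cd163l1, a scavenger receptor family gene of gamma-delta cells, was 295-fold (214 to 414) higher in sensitive delta receptor cells than in other T cells, and 558-fold (315 to 1019) higher in resistant ones. Il17a, the cytokine gene, was 173-fold (144 to 209) higher in the sensitive library, where 19 of 61 cells had a UMI. Single cells held 163, 131 and 108 of its 705 UMIs there, and the interval leaves out such spread between cells. The resistant ratio of Il17a, 2170, rests on 1 cell with 180 UMIs. Of 16 genes of an IL-17 gamma-delta list, the sensitive delta receptor cells held under 10 UMIs for 3, and the resistant ones for 11. A gene passed that filter only through the cells in which it is high, so nothing is read from how many of the rest differed. Of all genes compared, 8.21% were at least 2-fold higher in sensitive delta receptor cells, and 15.6% were in resistant ones. The transcription factor gene Sox13 (108, 51.7 to 247) and the kinase gene Blk (84.2, 53.9 to 135) were measured in the sensitive library. Of the 10 resistant cells, 8 had a Cd163l1 UMI, 4 a Blk UMI and 1 an Il17a UMI, while none had a UMI of Sox13, Il23r, Il17f or Ccr6, which at 10 cells allows a share of up to 30%. Of the 61 sensitive cells, 54 had Cd163l1, 33 Blk, 21 Sox13, 9 Il23r and 2 Il17f, and none had Ccr6. Sox13, Blk, Il23r, Il17a and Cd163l1 also help define the program gate, and 47 of the 61 cells lay in it.

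By the fixed rule of the smaller ratio of the libraries, the leading genes after Cd163l1 and Il17a were Serpinb1a (53.2 and 137), Tmem176b (16.5 and 37.6), Tmem176a (15.1 and 26.7) and Ckb (10.7 and 27.6). Cxcl10, Actn2, Tyrobp, Ccr2, Zfp36, Zfp36l1, Nr4a1, Fcer1g and Tnf followed, with smaller ratios between 4.62 and 10.4. Tyrobp and Fcer1g encode signalling adaptors that are shared with NK and myeloid cells. The delta receptor gate asked for no Cd3 UMI, and 4 of its 61 sensitive and 2 of its 10 resistant cells had an NK gene and no Cd3 UMI. Without them, a choice made after the data were seen, Tyrobp stood at 2.72 (1.89 to 3.80) in the sensitive library and had 0 UMIs in the 8 resistant cells left. Fcer1g then stood at 3.61 (2.94 to 4.40) and 1.55 (0.706 to 2.94). Cd163l1 stood at 317 (231 to 446) and 825 (467 to 1509), and Serpinb1a at 57.3 and 189. Of an interferon and cytotoxic list of 11 genes, 10 had at least 10 UMIs in the sensitive delta receptor cells and 5 were at least 2-fold lower, among them Ifng (0.215, 0.133 to 0.329) and Nkg7 (0.326, 0.289 to 0.367), where 1.99% of all genes were. In the resistant library 3 of the 11 were measured. Nkg7 (0.273) was at least 2-fold lower, where 1.81% of all genes were. Xcl1 (3.11), a chemokine gene, was at least 2-fold higher, where 15.6% of all genes were. The direction of Xcl1 turned without the 2 resistant cells that had an NK gene and no Cd3 UMI, to 0.184 (0.0223 to 0.666), while Nkg7 stood at 0.0759 (0.0278 to 0.165). Cd8a (0.144) and Cd8b1 (0.154) were the coreceptor genes measured, and both were lower in sensitive delta receptor cells.

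The alpha chain separated these cells from other T cells better than the beta constant genes did. A Trac UMI was found in 20 of 61 sensitive and 1 of 10 resistant delta receptor cells, against 82.5% and 84.2% of CD8 cells. Trbc1 or Trbc2 was found in 43 of 61 and 8 of 10 delta receptor cells, yet a Trbv segment was found in 11 of 61 and 2 of 10. Trac was lower in the sensitive delta receptor cells than in other T cells (0.395, 0.292 to 0.523), and Trbc1 stood at 1.01 (0.733 to 1.37). The 3 alpha-beta receptor genes had a median ratio of 0.699 against 1.09 over all genes, and the 4 CD3 complex genes one of 0.859. In the resistant library 3 of these were measured. Cd3g (0.369, 0.254 to 0.519) was at least 2-fold lower, where 1.81% of all genes were. Among the 8 resistant cells with a Cd3 UMI Cd3g stood at 0.547 (0.376 to 0.768), under 2-fold. All of Trdc, Trdv4, Tcrg-V6 and Tcrg-C1 were detected in 37 of 61 sensitive and 6 of 10 resistant cells.

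NK cells carried transcripts of the delta variable segment Trdv4 and of delta and gamma constant genes too. Trdv4 was found in 21 of 74 sensitive (28.4%, 18.5 to 40.1) and 12 of 42 resistant NK cells (28.6%, 15.7 to 44.6), with at most 5 UMIs in a cell. Trdc was found in 6 of 74 and 6 of 42 NK cells, and Tcrg-C1 in 11 of 74 and 2 of 42. These shares are partly set by the gates, since NK cells with Trdc and Trdv4 or Tcrg-V6 counted as delta receptor cells. With those put back, Trdc was found in 10 of 78 (12.8%, 6.32 to 22.3) and 8 of 44 (18.2%, 8.19 to 32.7) and Trdv4 in 25 of 78 and 14 of 44. Tcrg-C4, the constant gene of the last cassette, was found in 36 of 74 (48.6%) and 16 of 42 (38.1%). No NK cell had a UMI of Tcrg-C2, Trgv2, Tcrg-V3 or Tcrg-V7, which allows a share of up to 4.05% of sensitive and 7.14% of resistant NK cells for each. Trbc1 or Trbc2 was found in 59 of 74 and 25 of 42 NK cells, while a Trbv segment was found in 1 of 74 and 0 of 42, and a Trav segment in none. Tcrg-V6 was found in 2 of 74 and 1 of 42 NK cells, or in 3 of 78 and 1 of 44 with the delta receptor cells put back.

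**Figure D3:**
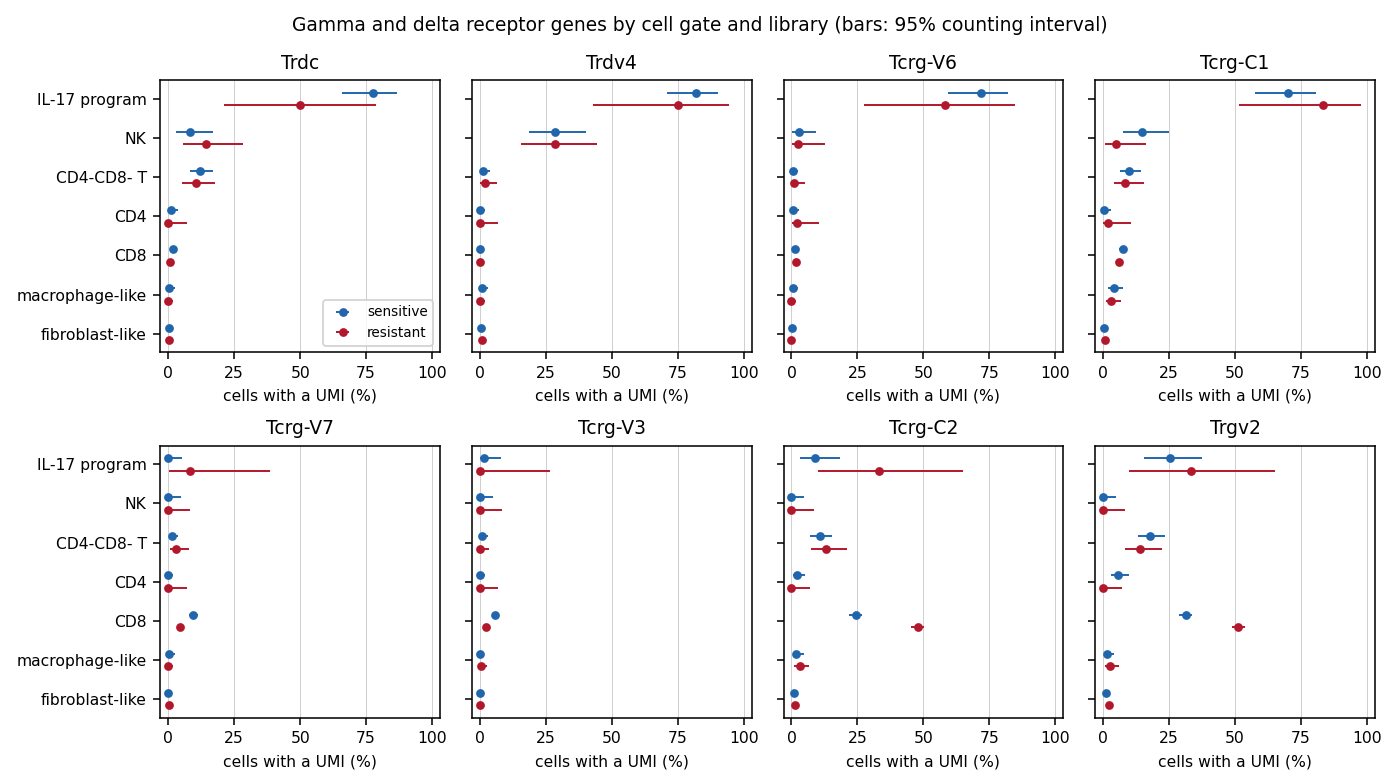
Share of cells with at least 1 UMI of each member (x axis, percent, full counts) by gate (y axis) for the sensitive (blue) and resistant (red) library, with 95% Clopper-Pearson intervals. Of the gates drawn, which leave out the delta receptor gate and T cells with both coreceptors, Trdc, Trdv4, Tcrg-V6 and Tcrg-C1 were most frequent in the IL-17 program gate, and Tcrg-C2 and Trgv2 in CD8 cells, of which 24.3% and 31.3% were positive in the sensitive and 47.8% and 51.2% in the resistant library.

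T cells with neither coreceptor held delta transcripts outside the IL-17 program. Trdc was found in 28 of 234 sensitive (12.0%, 8.10 to 16.8) and 11 of 106 resistant cells (10.4%, 5.30 to 17.8), and Trdv4 in 3 of 234 and 2 of 106. Tcrg-V6 was found in 1 cell of each library. Cells of the gamma-delta gates are left out of this gate by construction, and other segments were found here. Tcrg-C4 was found in 41 of 234 and 12 of 106 cells, Tcrg-V1 in 18 and 6, Tcrg-V4 in 13 and 2, and Trdv1 in 7 and 0. Of the CD4 cells, 2 of 196 sensitive and 0 of 51 resistant had a Trdc UMI, and 11 of 196 sensitive (5.61%, 2.83 to 9.82) had a Trgv2 UMI. In the resistant CD4 cells Trgv2 was not detected, which allows a share of up to 5.88%.

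When T/NK cells were clustered without receptor genes, sub-cluster 10, led by Il17a, Cd163l1, Serpinb1a and Blk, was the gamma-delta T-like one, with 79 sensitive and 13 resistant cells. Trdc was found in 61 of 79 and 8 of 13 of them. Sub-cluster 9, led by Cxcl2, Lmo4 and Calca and left unnamed, held 30 and 11 cells. Tcrg-C1 was found in 16 of its 30 sensitive and 4 of its 11 resistant cells, and Tcrg-C4 in 15 and 3. Trdv4 was found in 6 and 2 of them, while Trdc was found in none. A Cd3 UMI was found in 19.5% of its cells and a Trac UMI in 4.88%, at a median depth of 2444 UMIs, so most of these were cells without a detected Cd3 gene. A naive-like sub-cluster led by S1pr1, Tcf7 and Klf3 held Trdc in 21 of 253 sensitive and 11 of 110 resistant cells.

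CD8 cells carried gamma transcripts at high frequency, mostly of the Tcrg-C2 cassette. Tcrg-C2 was detected in 320 of 1318 sensitive CD8 cells (24.3%, 22.0 to 26.7) and in 746 of 1561 resistant CD8 cells (47.8%, 45.3 to 50.3). Thinned to 1000 UMIs, the shares were 7.26% and 16.4%. Its level of 85.0 CPM in sensitive CD8 cells was 0.457 times (0.414 to 0.503) the 186 CPM of resistant ones. Trgv2, the V segment of the same cassette, was detected in 31.3% (28.8 to 33.8) and 51.2% (48.7 to 53.8) of CD8 cells and stood at 185 and 265 CPM, a ratio of 0.697 (0.649 to 0.747), with thinned shares of 13.1% and 18.9%. Any of the 6 gamma members was found in 47.0% of sensitive and 66.0% of resistant CD8 cells, and in 1.93% and 3.89% of fibroblast-like cells.

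Tcrg-V7, Tcrg-V3 and Tcrg-C1 had higher levels over all sensitive CD8 cells than over all resistant ones. Tcrg-V7 was found in 125 of 1318 sensitive (9.48%) and 72 of 1561 resistant CD8 cells (4.61%), a CPM ratio of 2.28 (1.82 to 2.86), and after thinning in 3.90% and 1.35%. Tcrg-V3 was found in 5.92% and 2.37%, a ratio of 2.14 (1.58 to 2.89), which rested on cells of 1 beta segment. Without CD8 cells led by Trbv14, which was chosen after the values were seen, the Tcrg-V3 ratio was 1.07 (0.702 to 1.63), from 41 and 58 UMIs. Tcrg-C1 was found in 7.51% and 5.89%, at 23.0 and 15.5 CPM, a ratio of 1.48 (1.17 to 1.88). Both shares lie within the intervals given above for the deeper macrophage-like cells. The direction of Tcrg-C1 varied among cell groups. The Tcrg-C1 ratio was below 1 in 5 of 9 sub-clusters, with 0 intervals wholly below 1, and above 1 in 4, with 3 intervals wholly above 1. It was 4.46 (1.45 to 22.3) in sub-cluster 0 and 0.492 (0.298 to 0.802) in cells with Ly6c2. Tcrg-V6 showed no difference outside its interval, at 4.63 and 5.47 CPM with a ratio of 0.847 (0.520 to 1.36), and the interval allows a difference in either direction. In cells with Pdcd1 and Havcr2 its ratio was 0.0706 (0.00172 to 0.428), from 1 sensitive and 27 resistant UMIs. A Tcrg-C1 or Tcrg-C2 UMI was found after thinning in 122 of 1308 sensitive (9.33%, 7.81 to 11.0) and 270 of 1557 resistant CD8 cells (17.3%, 15.5 to 19.3), a ratio of 0.538 (0.440 to 0.657).

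Over 8271 genes with at least 100 UMIs in CD8 cells, the median ratio was 1.09. Relative to that median the ratios were 0.417 for Tcrg-C2, 0.636 for Trgv2, 1.35 for Tcrg-C1, 1.95 for Tcrg-V3 and 2.08 for Tcrg-V7, with each on the same side of 1 and Tcrg-V3 under 2-fold. Of the 8 members 6 reached that number of UMIs, and 3 were at least 2-fold higher and 1 at least 2-fold lower, where 1.06% and 0.665% of all genes were. Nothing is read from these counts, as the contrast was known when the members were chosen. Of the alpha-beta receptor genes, Trac at 1.07 (1.02 to 1.12) and Trbc2 at 1.08 (1.02 to 1.14) were near the median, and Trbc1 was below it at 0.811 (0.752 to 0.874).

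**Figure D4:**
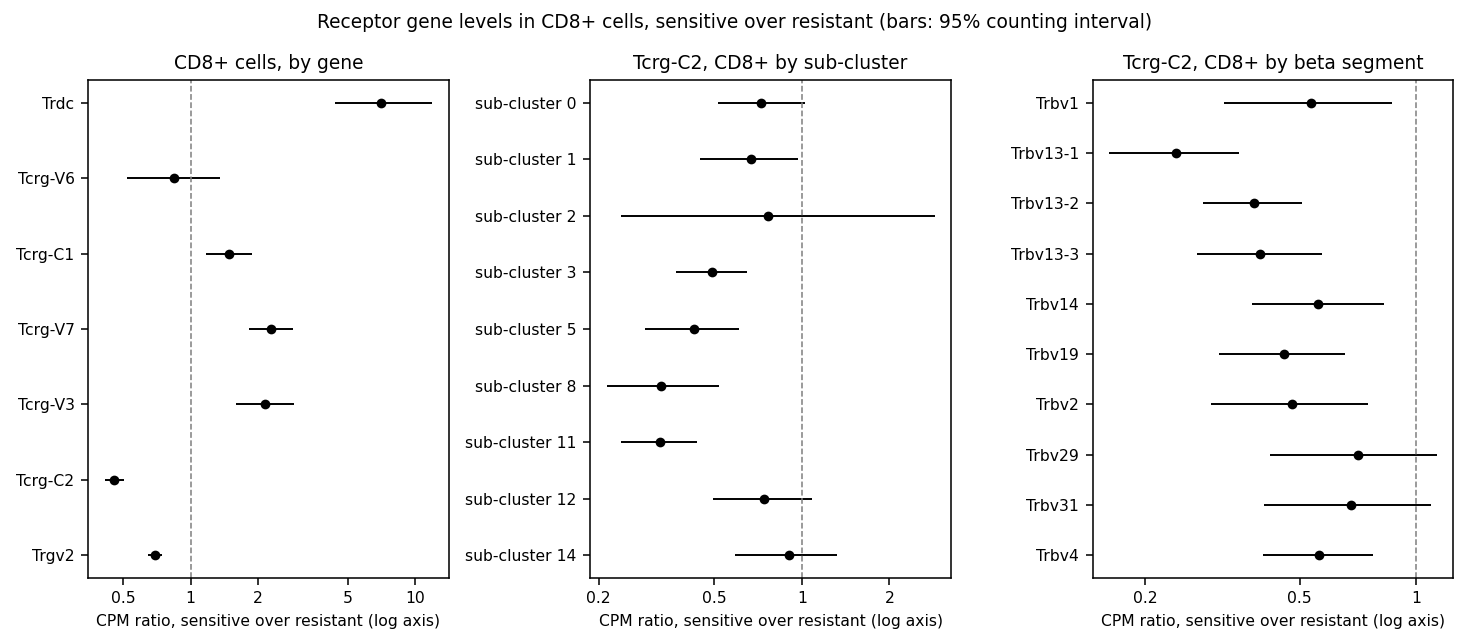
CPM ratios of the sensitive over the resistant library in CD8 cells (x axes, log scale) with exact 95% intervals for counting error, for 7 members (left), for Tcrg-C2 by T/NK sub-cluster (middle) and for Tcrg-C2 by the leading Trbv segment of the cell (right). The dashed line marks a ratio of 1, and Tcrg-C2 lay below it in 9 of 9 sub-clusters and 10 of 10 segments.

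The level of Tcrg-C2 in CD8 cells was also compared within groups of like cells. CD8 cells of 9 sub-clusters had at least 20 cells in each library, and the Tcrg-C2 ratio was below 1 in 9 of 9, from 0.326 to 0.899, with 5 intervals wholly below 1. It was 0.326 (0.239 to 0.436) in proliferating cells led by Ube2c and Birc5 (sub-cluster 11) and 0.327 (0.213 to 0.518) in cells led by Ccl3, Prf1 and Ccl4 (sub-cluster 8), which held 248 sensitive and 20 resistant CD8 cells. In sub-cluster 14, led by Klra5 with Apoe, Lyz2 and mitochondrial genes and made up of 36 sensitive and 457 resistant CD8 cells, it was 0.899 (0.586 to 1.33). Trgv2 was below 1 in 7 of 9 sub-clusters, with 3 intervals wholly below 1. Tcrg-V7 was below 1 in 1 of 9, a sub-cluster with no sensitive and 2 resistant UMIs. Sub-clusters 1 and 14 held mostly resistant cells, and without them the CD8 ratio of Tcrg-C2 was 0.499 (0.445 to 0.558).

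Gates on state genes, which can overlap, were a further split. Of 7 states tried, Tcrg-C2 was below 1 in the 6 described here, with 5 intervals wholly below 1, and above 1 in the remaining one, which is not described here and whose interval included 1. It was found in 30.5% of sensitive and 55.9% of resistant proliferating cells (Mki67 or Top2a), in 35.4% and 55.4% of cells with the checkpoint genes Pdcd1 and Havcr2, and in 21.3% and 51.1% of cells with at least 3 interferon-stimulated genes. Tcrg-V7 was above 1 in the same 6 states, with 5 intervals wholly above 1. Tcrg-V6 was below 1 in these 6 states, with 3 intervals wholly below 1, and Tcrg-C1 was below 1 in 4 of them. Trgv2 was below 1 in 5 of the 6 but stood at 1.60 (1.17 to 2.16) in cells with the granzyme genes Gzmd to Gzmg. Tcrg-V3 went either way, with 0.458 (0.183 to 1.01) in proliferating cells and 5.93 (2.72 to 14.3) in cells with Pdcd1 and Havcr2.

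Splitting CD8 cells by the beta segment that led in each cell gave 10 segments with at least 50 cells in a library. The Tcrg-C2 ratio was below 1 in 10 of 10, from 0.240 (0.161 to 0.348) in Trbv13-1 cells to 0.706 (0.421 to 1.13) in Trbv29 cells, and 8 intervals lay wholly below 1. Trgv2 was below 1 in 8 of 10, and above 1 in Trbv4 cells (1.40, 1.13 to 1.72) and Trbv31 cells (1.25, 0.922 to 1.69). Tcrg-V3 was most frequent in Trbv14 cells of the sensitive library. It was found in 52 of 182 sensitive (28.6%, 22.1 to 35.7) and 10 of 73 resistant (13.7%) Trbv14 cells, which held 74 of its 115 sensitive but 18 of its 76 resistant CD8 UMIs. Trbv2 cells had it in 6 of 40 and 7 of 59, and held 22 of the resistant UMIs. Trbv29 cells had it in 4 of 34 and 0 of 99. The Tcrg-V3 ratio was below 1 in 6 of 10 segments, with 0 intervals wholly below 1, and 3 intervals lay wholly above 1, of which that of Trbv14 cells was 2.47 (1.46 to 4.39). Trbv19 cells had it in 4 of 97 and 0 of 193, and Trbv13-2 cells in 1 of 169 and 5 of 219. Tcrg-C3, its cassette partner, was found in 14 of 182 and 3 of 73 Trbv14 cells. These segments were singled out after their values were seen.

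Within CD8 cells, V segments were found together with the constant gene of their own cassette. Of cells with a Tcrg-C2 UMI, Trgv2 was detected in 241 of 320 sensitive (75.3%, 70.2 to 79.9) and 562 of 746 resistant ones (75.3%, 72.1 to 78.4), against 17.1% and 29.2% of cells without one. For Tcrg-V7 the shares were 33.3% and 32.6% of Tcrg-C1 cells against 7.55% and 2.86% of the others. Tcrg-V6 was found in 14 of 99 sensitive and 19 of 92 resistant Tcrg-C1 cells, against 0.492% and 0.613% of the others. Tcrg-V3 was found in 14 of 31 and 7 of 13 cells with Tcrg-C3, against 4.97% and 1.94%. Pairs of different cassettes were also measured. Tcrg-V6 was found in 1.56% and 2.41% of Tcrg-C2 cells against 1.50% and 1.23% of the others, and Trgv2 in 40.4% and 59.8% of Tcrg-C1 cells against 30.5% and 50.7%. Tcrg-V3 was found in 16.2% and 3.26% of Tcrg-C1 cells against 5.09% and 2.31% of the others. Trgv2 was found in 64.6% and 56.8% of Tcrg-C4 cells against 30% and 51.0%, so some pairs of different cassettes were found together as well. Cells with a constant gene UMI were deeper in most pairs, at a median of 4995 against 3823 UMIs for Tcrg-C2 in the sensitive library, and the part of depth in these shares was not tested.

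**Figure D5:**
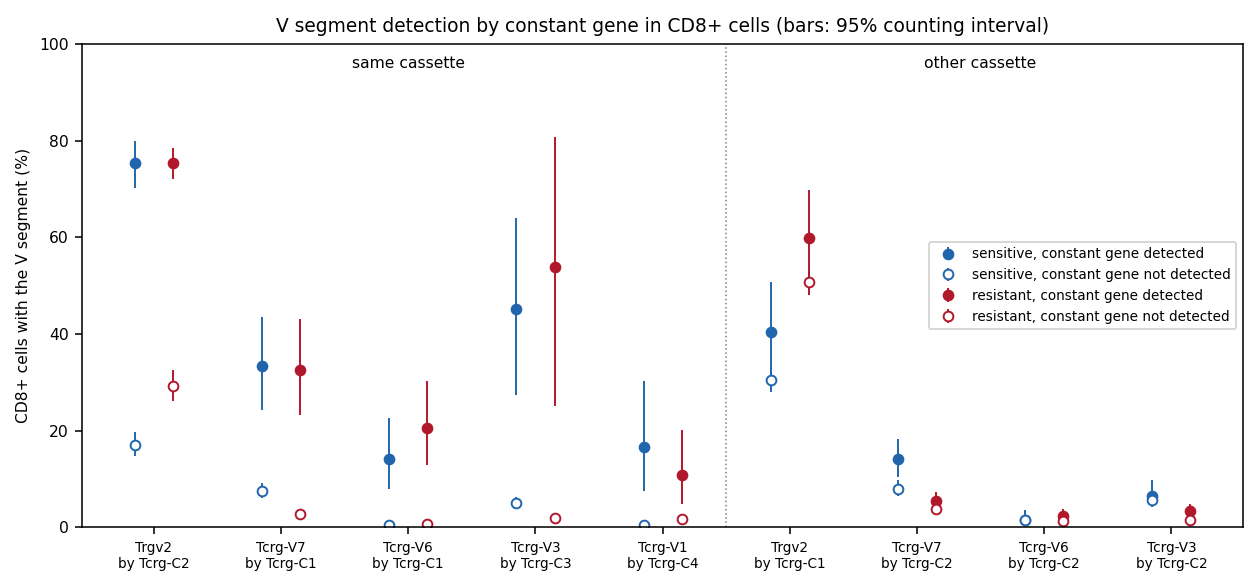
Share of CD8 cells with a V segment UMI (y axis, percent) among cells with (filled) and without (open) a UMI of the named constant gene, for the sensitive (blue) and resistant (red) library with 95% Clopper-Pearson intervals. For pairs of the same cassette (left) filled points lie above open ones, as for Trgv2 at 75.3% against 17.1% in the sensitive library.

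Delta transcripts were rare in CD8 cells. Trdv4 was found in 3 of 1318 sensitive and 2 of 1561 resistant cells, where fibroblast-like cells had a share of 0.481% and 0.676%. The gate leaves out gamma-delta cells by construction, and with the 8 sensitive and 3 resistant ones put back Trdv4 was found in 9 of 1326 (0.679%, 0.311 to 1.28) and 2 of 1564 cells, and Trdc in 31 and 10. Trdc was found in 24 of 1318 sensitive (1.82%, 1.17 to 2.70) and 10 of 1561 resistant CD8 cells (0.641%, 0.308 to 1.17), and its resistant share is within the interval of the fibroblast-like background. The sensitive level was 16.2 CPM against 2.30 CPM, a ratio of 7.06 (4.39 to 11.9), and thinned cells were positive in 1.45% and 0.257%. Of the 105 sensitive Trdc UMIs in CD8 cells, 74 (70.5%) lay in 15 cells whose leading beta segment was Trbv19, of 97 such cells. In the resistant library 1 of 193 Trbv19 cells had a Trdc UMI, and 14 of its 21 Trdc UMIs in CD8 cells lay in 6 of 151 cells led by Trbv13-1, against 0 of 84 such sensitive cells. Without Trbv19 cells the level was 5.22 CPM in sensitive against 2.53 CPM in resistant CD8 cells, a ratio of 2.07 (1.14 to 3.83), and without Trbv13-1 cells the ratio was 20.6 (9.65 to 52.5). Both segments were singled out after their values were seen.

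CD8 cells with a Tcrg-C1 or Tcrg-C2 UMI after thinning, 122 sensitive and 270 resistant cells, were compared with the 1186 and 1287 CD8 cells without one. The genes with the strongest lower ratio in the positive cells of each library are named by rank. Ccr7, the lymph node homing receptor, had ratios of 0.109 (0.0224 to 0.324) and 0.156 (0.0622 to 0.327). Tcf7, a transcription factor of naive and stem-like cells, had ratios of 0.233 (0.0748 to 0.553) and 0.337 (0.151 to 0.659), from 5 and 9 UMIs in the positive cells. Slamf6, Cxcr4, Mpp5, Csrp2 and Crim1 were also among the 10 genes with the strongest lower ratio in the libraries, as were the granzyme genes Gzmc (0.107 and 0.174) and Gzme (0.0719 and 0.250). Of all genes compared, 4% were at least 2-fold lower in sensitive and 1.51% in resistant gamma-positive cells. Many ratios over so few UMIs reach a fold of 2, and the positive cells of the sensitive library held 3 UMIs of Ccr7.

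Among the 10 genes with the strongest higher ratio, Trgv2 stood out by its number of UMIs, at 2.97 (2.59 to 3.39) and 2.05 (1.87 to 2.24). The others were Glp1r, Btbd2, Smarcal1, Wipf2, Oas1c, Trav16n, Wdr81, Ccdc80 and Ppfibp1, each with at most 43 UMIs in the positive cells of a library, where 1.17% and 0.377% of all genes were at least 2-fold higher. Gzma, a granzyme gene, was 2.20 (2.06 to 2.35) in the sensitive and 0.786 (0.747 to 0.826) in the resistant library, so it differed in direction. It was the only 1 of 11 genes of the interferon and cytotoxic list at least 2-fold apart in the sensitive library, and none was in the resistant one. The alpha-beta receptor genes had median ratios of 1.05 and 1.19, and Cd8a and Cd8b1 median ratios of 1.11 and 1.12.

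Genes known to act on the gamma locus were compared between the libraries in CD8 cells. Of 18 such genes, which include the IL-7 receptor gene Il7r, the kinase and factor genes of its signal (Jak1, Jak3, Stat5a and Stat5b) and the Runx, E protein and Id genes, 5 were below the filter on UMIs, and of the 13 measured 0 were at least 2-fold higher or lower, where 1.06% and 0.665% of all genes were. At such background shares a count of 0 is no result about the list. Their median ratio was 1.33 against 1.09 over all genes. Tcf7 had the highest ratio, 1.99 (1.60 to 2.47), Runx1 stood at 1.91 (1.50 to 2.45), and Runx3 at 0.767 (0.711 to 0.828). Between gamma-positive and gamma-negative CD8 cells, Tcf7 was the only 1 of the 13 measured at least 2-fold lower, in each library. Of all genes, 4% were that much lower among sensitive cells and 1.51% among resistant ones. Tcf7 had already been named by rank from the same comparison, so nothing is read from its count. Il7r stood at 0.622 (0.508 to 0.754) and 0.874 (0.763 to 0.999) in that comparison, and Il2rb, a receptor chain of IL-2 and IL-15, at 1.21 (1.08 to 1.36) and 1.18 (1.10 to 1.28). In sensitive delta receptor cells 13 of the 18 were measured against other T cells, with a median ratio of 1.26 against 1.09 over all genes. Of them 4 were at least 2-fold higher and 0 lower, where 8.21% and 1.99% of all genes were. Il7r stood at 2.26 (1.96 to 2.59) and Runx1 at 2.02 (1.30 to 3.03). The filter asked for UMIs in the delta receptor cells, so nothing is read from these counts.

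The genes whose level over 26 sums of cells (sub-cluster by library, at least 20 cells each) was most like that of a member were named by Pearson's r of log2(CPM + 10). The sums share their library and its depth, so r is a description. For Trdc they were Aqp3 (0.87), Prdx6 (0.83), Gm19705, Gpr183 and Smox, and Aqp3 and Smox were among the leading genes of the gamma-delta T-like sub-cluster. For Tcrg-C2 they were Trgv2 (0.88), Mrps16, Chst10, Atxn1 and Cd8b1 (0.78). For Tcrg-C1 they were Entpd5 (0.86), Cxcl2 (0.82), Psap, Tepsin and Cmtm6, of which Cxcl2 led the unnamed sub-cluster 9.

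Libraries of whole tumors, made without T cell enrichment, held too few T cells to describe the members. Trdc was found in 8 of 501 barcodes of saline-treated control tumors, 3 of 278 of sensitive and 3 of 275 of resistant tumors. Tcrg-C2 was found in 3, 2 and 2 barcodes, Tcrg-C1 in 2, 0 and 0, and Trdv4 in 1, 0 and 0. Tcrg-V3, Tcrg-V6, Tcrg-V7 and Trgv2 were not detected, which allows a share of up to 0.599%, 1.08% and 1.09%. Cd3e was found in 41, 1 and 11 barcodes.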

How the data were processed

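UMI counts per gene and barcode were deposited by the authors as matrices, made with Cell Ranger 6.0.0 for the T cell libraries and Cell Ranger 3.0.1 for the whole-tumor libraries, on mm10 (3′ v3 chemistry, per the labels). No column of another series was present (0). The members and gene lists were chosen with earlier results of these data known. A barcode was kept from 500 detected genes upward, with mitochondrial UMIs up to 10%. Putative doublets were removed by Scrublet score at 0.8% per 1000 barcodes (114 sensitive, 174 resistant). Kept cells (3446 and 3076, of which 18 barcodes occurred in both libraries) were clustered with scanpy 1.11.5 on 2000 variable genes without receptor genes, 30 components, 15 neighbors and Leiden resolution 1. Clusters with a Cd3 or NK gene UMI in at least 50% of cells formed the T/NK cells, a rule set after the clusters were seen, and other names came from listed markers. Thinning to 1000 UMIs left out 26 sensitive and 5 resistant T/NK cells.

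Shares have Clopper-Pearson intervals, ratios of shares log-scale intervals and CPM ratios exact conditional binomial intervals at 95%, for counting error only. A count of 0 is given with the share that 3 counts would make. Genes were compared with at least 100 UMIs in both libraries together, 50 in each library for gamma-positive CD8 cells, or 10 in the delta receptor cells, and counted as higher or lower from 2-fold. Named genes were the members, other locus features with at least 20 UMIs, the lists, and genes ranked by the smaller ratio of the libraries (15 for delta receptor cells, 10 each way for gamma-positive CD8 cells) or by r (5 for a member). The ratios and thinning were tested on simulated data, and no conclusion about the intervals in real cells is drawn from that. Real UMIs can lie in few cells, as 74 of the 105 sensitive Trdc UMIs of CD8 cells lay in 15 cells. Sequences and positions came from GRCm38 with GENCODE M21, all 8 members were matched by name, and 0 of 8 were in the promoter table. The source label of the resistant whole-tumor library names sensitive tumors, while its title and DOX response label say resistant, and the title was followed. Some genes of the lists and gates, and a CD8 state, are not reported here.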

Additional observations from a re-analysis of the deposited data

How the results depend on the processing

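The 7 values that compare the libraries directly were recomputed under 64 alternatives in all, and none turned to the other side of 1. In 58 the value stayed within the 95% interval of the reported one, and in 6 it moved outside. The share of delta receptor cells was 11.1 times as high in the sensitive library at a mitochondrial limit of 5%, where 1 resistant cell remained. The share of IL-17 program cells was 10.4 times as high with cells thinned to 2000 UMIs and 9.54 times with 2 UMIs asked of each program gene. Full counts are the reported setting of that gate, so they gave no separate value. The Trdc ratio in T/NK cells was 3.68 without CD8 cells of Trbv19, a choice made after the data were seen. The Tcrg-C1 ratio in CD8 cells was 1.90 at the 5% limit, and the Trgv2 ratio 0.636 relative to the median gene. The cause was not tested. The Tcrg-C2 ratio in CD8 cells ran from 0.417 to 0.499 and the share ratio of gamma constant positive CD8 cells from 0.451 to 0.635. Leaving out sub-clusters 1 and 14, both gamma-delta gates or barcodes of both libraries was also chosen after the data were seen, and Trdc then stood at 4.06 outside the gamma-delta gates. No paired analysis was possible because each group has 1 library and no result comes from a test. The number of delta receptor cells in the resistant library, 10, limits every value about them.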

Other observations

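The Trbv19 CD8 cells of the sensitive library fell into groups that hardly overlapped in their receptor transcripts, noticed after the values were seen and given as values only. Of 97 such cells, 15 had a Trdc UMI, with a median of 3 and a highest value of 14 UMIs, and 28 others had a UMI of the delta segments Trdv2-1 or Trdv2-2. No cell had both. A Trav segment was found in 3 of the 15 and 3 of the 28 cells, against 40 of the 54 remaining cells, while Trac was found in 15 of 15, 24 of 28 and 40 of 54. Trgv2 was found in 1 of 15, 0 of 28 and 20 of 54 cells, and Tcrg-C2 in 1, 0 and 17. Median depths were 3864, 4576.5 and 4209.5 UMIs. In the resistant library 1 of 193 Trbv19 cells had a Trdc UMI and none a Trdv2 segment, while Trgv2 was found in 116 of the 192 others. Whether these groups are expanded clones cannot be told from these files, which hold no receptor assembly.

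Other features of the loci were found at these counts. Trgj2, the joining segment beside Tcrg-C2, was found in 44 of 1318 sensitive and 80 of 1561 resistant CD8 cells, and Tcrg-C4 in 48 and 74. Tcrg-C3 was found in 31 sensitive and 13 resistant CD8 cells and in 3 and 1 other T/NK cells. Trdv5 had 28 UMIs in sensitive T/NK cells and 0 in resistant ones.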
